A study of Mus musculus with 30 samples.

Results

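The comparison described here is the difference between 2 responses to CDDO-Me (bardoxolone methyl, an oleanane triterpenoid): the change in liver mRNA of wild-type (WT) mice minus the change in C151S mice. It uses 20 of the 30 mRNA-seq libraries of the series, 5 from each of 4 groups, and the test asks of each gene whether the 2 changes differ. WT Vehicle and WT CDDO-Me mice carry the normal Keap1 gene. C151S Vehicle and C151S CDDO-Me mice are homozygous for a knock-in allele, made by CRISPR, that encodes serine in place of the KEAP1 cysteine known as C151. All mice were male, 7 to 10 weeks old, and on the albino C57BL/6J background. They received 1 oral dose of 30 µmol/kg CDDO-Me or of its vehicle (DMSO, Cremophor-EL, and PBS), and livers were taken 24 hours later. The WT mice came from a vendor and the mutants from homozygous breeding, so that source and litter differ with genotype. The 10 libraries of Nrf2-knockout mice, also with vehicle or CDDO-Me, are used here only for values set beside those of the called genes.

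KEAP1 is the sensor of a transcription pathway. It holds the factor NRF2 (gene Nfe2l2) in a complex with the CUL3 ubiquitin ligase, which marks NRF2 for degradation. Electrophiles that react with cysteines of KEAP1 stop this degradation, and NRF2 then binds antioxidant response elements with a small MAF protein and raises the transcription of genes for quinone reduction, glutathione conjugation, and NADPH supply. In liver the pathway is known for its control of drug conjugation and of the supply of reducing equivalents.

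The altered residue lies in the coding part of exon 2 of Keap1 (ENSMUSG00000003308.15), a gene of 6 exons and 624 codons on the minus strand of chromosome 9. In the GRCm38 reference the codon is TGT, for cysteine, at chr9:21237257-21237259. The stretch below, chr9:21237230-21237286 read on the minus strand, is shown because it is the site at which the 2 genotypes differ. Capitals mark the codon in its WT form. The mutant codon was not read from these data, since counts per gene carry no sequence.

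Keap1 codon of C151: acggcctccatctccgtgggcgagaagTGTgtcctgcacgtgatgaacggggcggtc

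The 20 libraries held between 23667068 and 37768767 counts assigned to genes. The summed expression of 6 hepatocyte markers lay between 67640 and 143100 CPM, which are counts scaled to a common library size, in every library, and 0 tested members of the 8 lists of liver cell type markers differed in response by the test used here (edgeR), or by DESeq2 or limma-voom, with Krt7 and Ms4a1 alone at an unadjusted p under 0.05. Of all genes 0.474% differed in response by edgeR, so the lack of a call in such short lists says little. The neutrophil markers Ly6g and Mpo did not pass the filter on low counts. In bulk liver, fewer cells of a type and less RNA per cell cannot be told apart. The clock gene Arntl divided the C151S libraries: it lay between -1.20 and -0.26 log2 CPM in 5 of them (2 vehicle and 3 CDDO-Me) and between 2.51 and 4.78 log2 CPM in all others, which include every WT library. The low libraries were C151S Vehicle replicates 4 and 5 and C151S CDDO-Me replicates 3, 4, and 5. In sample order they follow the other C151S libraries, and the labels do not give the meaning of that order. Because of this division, the results below are also given from the 15 libraries with high Arntl. Replicate 1 of the C151S CDDO-Me mice stood apart from the other 4 of its group. Its summed expression was 91200 CPM for acute phase genes, where the others had 9300 to 15300 CPM, 4730 CPM for metallothioneins and zinc transporters (others 753 to 994 CPM), and 14.1 CPM for the 2 tested neutrophil markers (others 1.09 to 2.54 CPM). Its hepatocyte marker sum was the lowest of the group. It is also 1 of the 2 treated C151S mice with high Arntl, so values from those 15 libraries rest on it more heavily. Without it 58 genes were called in place of the 69 described next, 53 of them shared.

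Of 14542 genes tested, 69 (0.474%) responded differently to CDDO-Me in WT and in C151S mice at a false discovery rate under 0.05 in edgeR's quasi-likelihood test, and 1484 had an unadjusted p under 0.05. The response was more positive in WT mice for 60 genes (0.413%) and more negative in WT mice for 9 (0.0619%). The first group held 31 members of 10 lists of detoxification genes, among them enzymes of quinone and carbonyl reduction, glutathione conjugation, NADPH supply, and glucuronidation, and 29 genes outside those lists. In it, 58 genes rose with CDDO-Me in WT mice by themselves (1.23% of all genes did), and 0 rose in C151S mice (0.268% of all genes did). A log2 difference of 1 means that the fold change was larger in WT than in C151S mice by a factor of 2. The median difference over the 60 genes was 1.36, from 0.58 to 5.71, where the median over all genes tested was -0.00. The median change of these genes was 1.20 in WT mice and -0.09 in C151S mice.

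**Figure D1:**
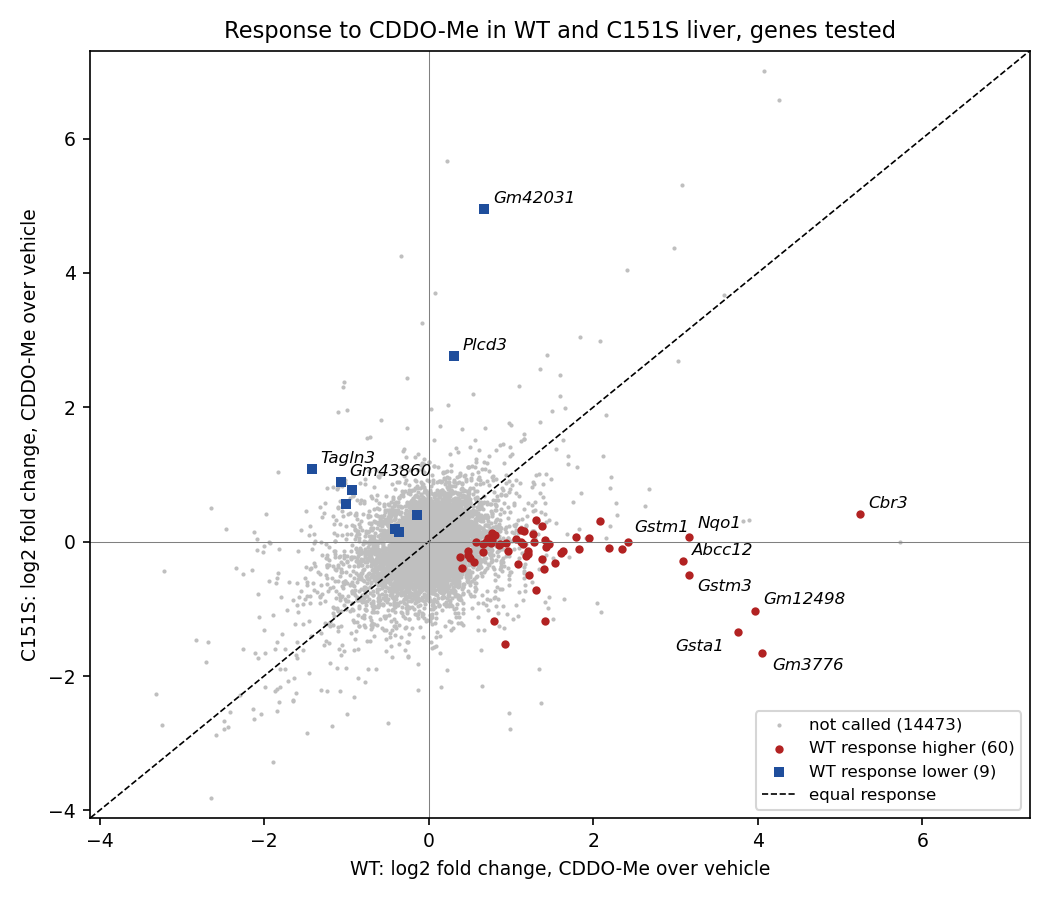
Change with CDDO-Me of each tested gene (points) in WT mice (horizontal axis, log2 fold change) and in C151S mice (vertical axis, log2 fold change), with genes whose 2 changes differ in red circles (60, more positive in WT) and blue squares (9, more negative in WT) and the line of equal change dashed. The red genes lie along the horizontal axis, with changes from 0.39 to 5.25 in WT and from -1.66 to 0.41 in C151S mice.

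None of the 60 genes passed the test in the upward direction in C151S mice, where 0.268% of all genes did. At an unadjusted p under 0.05, 0 of them were higher after CDDO-Me in C151S mice, where 11.5% of all genes were. The 95% interval of the C151S change held 0 for 51 genes and lay below 0 for the other 9. Of all genes, 9.48% were lower at an unadjusted p under 0.05. In 59 of the 60 genes all 5 WT CDDO-Me libraries lay above all 5 WT Vehicle libraries, a pattern found in 3.36% of all genes. In C151S mice it was found in 0 of the 60, beside 0.901% of all genes. Since the genes were called from these same libraries, all these counts and shares describe the call and do not test it. With only the 15 libraries of high Arntl, in which C151S had 3 Vehicle and 2 CDDO-Me mice, all 69 genes kept the sign of their difference and 40 were called. The 29 that lost their call had adjusted p values from 0.0522 to 0.262 there. They were Gclm, Gclc, Gsr, Slc48a1, Ftl1, Blvrb, Gsta1, Gm3776, Abcc4, Abcc12, Slc25a17, Prune1, 9130409I23Rik, Igsf1, Tcf7l2, Tbce, Htatip2, Arpp19, Hectd2os, Ikbkg, D630045J12Rik, C2cd2, and Ddit4l of the first group, and Mpp4, Prss53, Gm42031, Irf2, Cactin, and Plcd3 of the second.

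Cbr3 had a wide separation of the genotypes. It encodes carbonyl reductase 3, an NADPH-dependent reductase of carbonyl compounds. In WT Vehicle mice its expression was 0.473, 0.915, 0.64, 0.453, and 0.273 CPM, and in WT CDDO-Me mice 13.8, 15.9, 21.5, 20.3, and 34.5 CPM. C151S Vehicle mice showed 0.352, 0.298, 0.508, 0.282, and 0.453 CPM, and C151S CDDO-Me mice 0.402, 0.507, 0.395, 0.552, and 0.667 CPM. All treated WT mice lay far above the other 15 mice, whereas the 2 C151S groups overlapped. The fold change was 38.0 in WT and 1.33 in C151S mice, and the log2 difference was 4.84 (SE 0.44, adjusted p = 3.18e-06).

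Nqo1 encodes the NAD(P)H quinone reductase that is the usual readout of the pathway. WT Vehicle mice had 9.03, 9.09, 4.4, 8, and 4.57 CPM, and WT CDDO-Me mice 53.8, 47.4, 50.8, 55.4, and 107 CPM. C151S Vehicle mice had 6.23, 7.29, 6.5, 6.41, and 6.5 CPM, and C151S CDDO-Me mice 5.5, 7.43, 6.23, 7.93, and 7.58 CPM. The WT groups did not overlap, with 1 treated mouse well above the other 4, and the C151S groups covered the same range. On the log2 scale the responses differed by 3.09 (SE 0.32, adjusted p = 1.76e-05), and the change in C151S mice was 0.08 with a 95% interval from -0.39 to 0.54. Nqo1 therefore differed in response while its level in vehicle-treated mice differed by 0.09 on the log2 scale (adjusted p = 0.85).

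Srxn1 and Txnrd1 belong to the thioredoxin and peroxiredoxin system, in which sulfiredoxin repairs over-oxidized peroxiredoxins and thioredoxin reductase passes electrons from NADPH to thioredoxin. Srxn1 lay at 51.1, 67.9, 51.4, 57.6, and 47.9 CPM in WT Vehicle mice and at 216, 189, 219.6, 264, and 375 CPM in WT CDDO-Me mice. In C151S Vehicle mice it lay at 35.3, 36.7, 35.8, 36.3, and 42.2 CPM and in C151S CDDO-Me mice at 39.9, 35, 35.9, 31.1, and 33.1 CPM. Every WT mouse was above every C151S mouse, and treatment separated the WT groups only. The log2 difference was 2.29 (SE 0.20, adjusted p = 3.18e-06). Txnrd1 had a smaller difference, 0.95 (SE 0.15, adjusted p = 0.00303), with 268 to 364 CPM in WT CDDO-Me mice and 102 to 144 CPM in C151S CDDO-Me mice. Together 2 of 18 tested members of this list were called, and 4 rose and 1 fell in WT mice. Of the 18 differences, 10 were above 0 and 8 below.

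**Figure D2:**
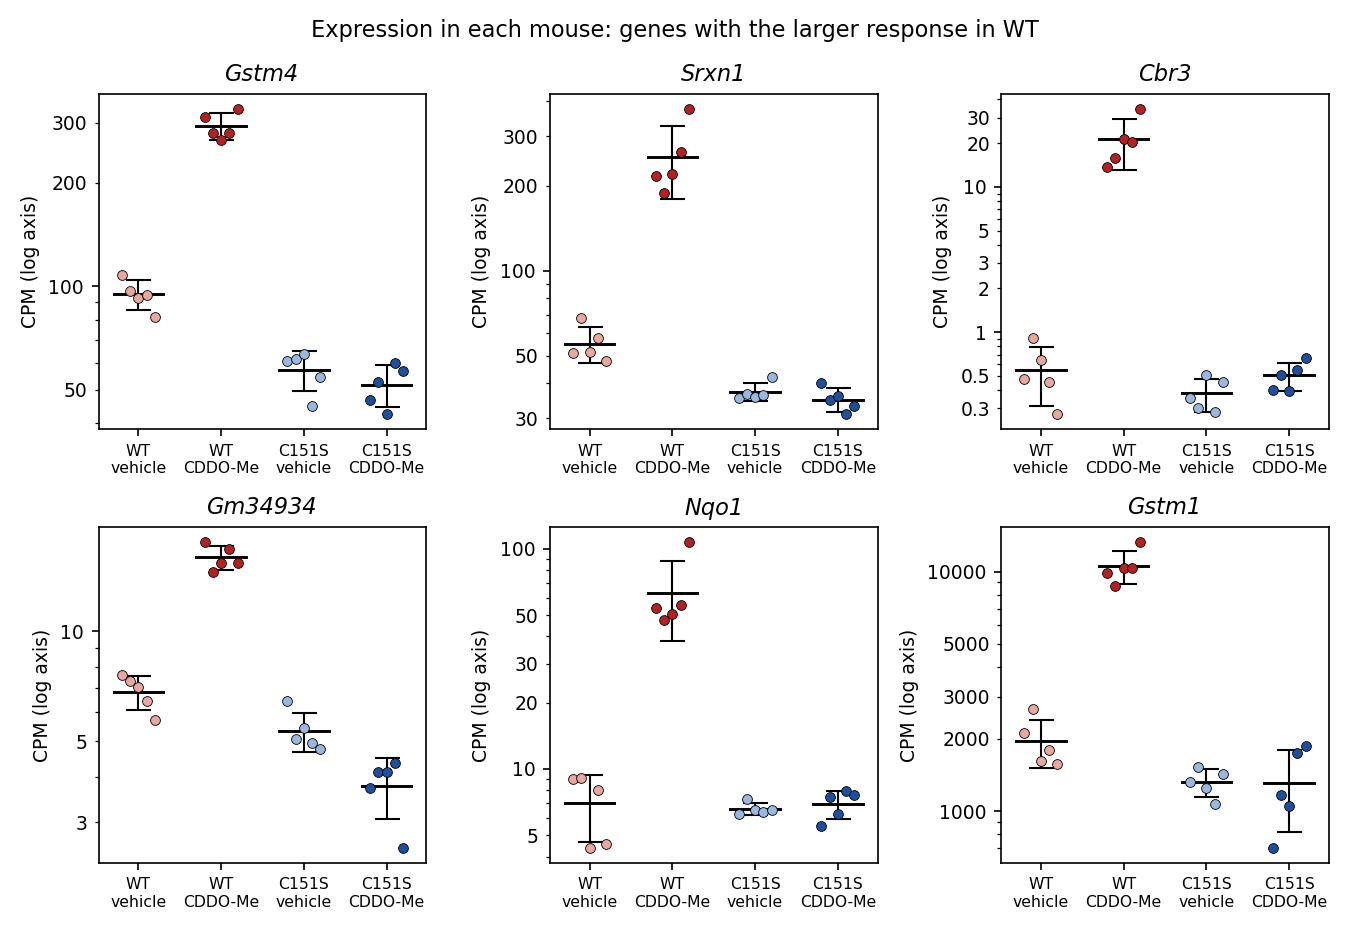
Expression in each mouse (points, CPM on a log axis) of 6 genes with a more positive response in WT mice, in the 4 groups of 5 mice, with the mean as a line and the SD as bars. In each panel the WT CDDO-Me mice lie above the WT Vehicle mice, and no C151S CDDO-Me mouse reaches them.

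The mu class of glutathione S-transferases, which conjugate glutathione to electrophiles, had 4 called genes of 7 tested. Gstm1 was the most abundant of them in CPM, a scale that is not corrected for transcript length. Its expression was 2115, 2671, 1622, 1806, and 1576 CPM in WT Vehicle mice and 9882, 8722, 10354, 10344, and 13250.2 CPM in WT CDDO-Me mice. Gstm1 in C151S mice was 1324, 1520.2, 1252, 1068, and 1433 CPM with vehicle and 704, 1171, 1048, 1754, and 1873 CPM with CDDO-Me. The treated C151S mice spread on both sides of their vehicle controls, with no shift of the group. On the log2 scale the responses differed by 2.43 (SE 0.31, adjusted p = 0.000254).

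Gstm4 had the lowest p of all genes. It was at 108, 97.2, 92.4, 94.5, and 81.7 CPM in WT Vehicle mice and at 311, 279, 266, 280.1, and 329 CPM in WT CDDO-Me mice. In the mutants it lay at 60.8, 61.6, 63.7, 44.9, and 54.6 CPM with vehicle and at 46.7, 52.8, 42.5, 59.8, and 56.8 CPM with CDDO-Me. The groups of each genotype were tight, and every WT mouse lay above every C151S mouse, treated or not. The log2 difference was 1.77 (SE 0.15, adjusted p = 3.18e-06). Gstm3 differed by 3.66 (SE 0.51, adjusted p = 0.000763). Gstm2 rose 2.75-fold in WT mice, its fold change in C151S mice was 0.972, and the difference passed (adjusted p = 0.00122). Gstm5, Gstm6, and Gstm7 did not pass, with differences of -0.00, 0.56, and 0.03. Mu class genes are near-identical in places and only uniquely placed reads were counted, so the split of reads among them is uncertain.

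The called mu class genes are neighbors. The stretch given next was cut at called genes, and the uncalled Gstm5, Gstm6, and Gstm7 lie outside it. On chromosome 3 of GRCm38, between 107963696 and 108044894, a stretch of 81199 bases, 5 genes were tested and all 5 were called: Gstm3, Gstm2, Gstm1, the noncoding gene Gm12498, and Gstm4. Gm12498 lies just upstream of Gstm1 on the same strand and had a difference of 4.99 (SE 0.70, adjusted p = 0.000763), with 4.25 to 5.21 CPM in WT CDDO-Me mice and at most 0.476 CPM elsewhere. In all, 15 of the 69 called genes lay within 100 kb of another called gene, in 6 clusters. The share over all tested genes was not computed, so this count is a description only. Each cluster was cut at called genes, so the calls at its ends hold by construction. The other clusters were Cbr1 with Cbr3 on chromosome 16, Gsta1 with Gm3776 on chromosome 9, and Ugt2b35 with the pseudogene Gm18635 on chromosome 5. Ephx1 lay with 9130409I23Rik on chromosome 1, and Samd4 with the noncoding gene Gm34934 on chromosome 14. Samd4 and Gm34934 lie head to head on opposite strands. Gstm2-ps1, a processed pseudogene elsewhere on chromosome 5, and Gm18635 share sequence with the functional genes and are uncertain for that reason.

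Gm34934 was among the 5 genes of lowest p. WT Vehicle mice had 7.57, 7.29, 7.04, 6.43, and 5.73 CPM and WT CDDO-Me mice 17.5, 14.5, 15.4, 16.8, and 15.4 CPM. Mutant mice given vehicle had 6.43, 5.06, 5.43, 4.94, and 4.77 CPM and C151S CDDO-Me mice 3.72, 4.11, 4.13, 4.36, and 2.56 CPM. Here the treated mice lay above the vehicle mice in WT and below them in C151S without overlap in either genotype, although the C151S change did not pass (log2 change -0.49, adjusted p = 0.0627). On the log2 scale the responses differed by 1.72 (SE 0.18, adjusted p = 1.76e-05). Its neighbor Samd4, an RNA-binding repressor of translation, changed by 1.31 in WT (adjusted p = 0.000255) and had a value of -0.72 in C151S mice (adjusted p = 0.0631), with 1.78 to 4.12 CPM in treated and 3.88 to 6.87 CPM in vehicle C151S mice, so that these 2 groups overlapped.

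Other glutathione transferases had 2 called members of 15 tested. Gsta1, an alpha class enzyme, differed by 5.10 (SE 0.86, adjusted p = 0.00437). It ranged from 8.11 to 65.2 CPM in WT CDDO-Me mice and from 1.57 to 3.7 CPM in WT Vehicle mice. In C151S mice it ranged from 0.313 to 2 CPM with vehicle and from 0.0335 to 1.02 CPM with CDDO-Me. Its near-identical neighbor Gm3776 had the largest called difference, 5.71 (SE 1.20, adjusted p = 0.0319), but some C151S libraries had 0 counts, and both genes share reads with Gsta2, so that their sizes are uncertain. Without the libraries of low Arntl neither was called (adjusted p = 0.058 for Gsta1 and 0.0868 for Gm3776). Mgst3, a membrane-bound enzyme of this family, differed by 1.19 (SE 0.21, adjusted p = 0.00824).

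The list labeled quinone, carbonyl, and epoxide reduction also holds an oxidase and a hydrolase, which are not reductases. In WT mice 10 of its 27 tested members rose. In the test of the difference 6 of the 27 were called, all more positive in WT mice. Beside Cbr3 and Nqo1 these were Akr1b8 (1.93, SE 0.24, adjusted p = 0.000254), an aldo-keto reductase, and Cbr1 (1.77, SE 0.29, adjusted p = 0.00303), a carbonyl reductase. Aldehyde oxidase Aox1 differed by 1.38 (SE 0.21, adjusted p = 0.00167) and the microsomal epoxide hydrolase Ephx1 by 1.35 (SE 0.23, adjusted p = 0.00425). Cbr1 lay at 246 to 444 CPM in WT CDDO-Me mice, whereas the other 15 mice lay between 60.7 and 135 CPM. The median difference over the 27 members was 0.32.

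Glutathione synthesis and recycling had 4 called genes of 15 tested. Gclc and Gclm encode the catalytic and modifier subunits of glutamate-cysteine ligase, which makes the first intermediate of glutathione. Gclc differed by 1.64 (SE 0.33, adjusted p = 0.0225) and Gclm by 0.75 (SE 0.11, adjusted p = 0.00156). Gclm was at 279 to 354 CPM in WT CDDO-Me mice and at 161 to 203 CPM in the other 3 groups, so that a small difference stood out from a narrow spread. Glutathione reductase Gsr differed by 0.89 (SE 0.15, adjusted p = 0.00375) and Esd, an esterase that releases glutathione from S-formylglutathione, by 0.71 (SE 0.10, adjusted p = 0.00085). With high-Arntl libraries only, 1 of these 15 members was called.

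Gpx2, a glutathione peroxidase, was at or near the floor of detection outside the treated WT mice. It had 1, 3, 2, 1, and 1 counts in WT Vehicle mice and 25, 14, 24, 19, and 45 counts in WT CDDO-Me mice. C151S Vehicle mice had 2, 0, 0, 0, and 1 counts, and C151S CDDO-Me mice 1, 1, 0, 1, and 1 counts. The summed WT counts, scaled to library size, gave a ratio of 15.8 with an exact Clopper-Pearson interval from 7.8 to 37.5 that covers counting error only. Both C151S groups were at the floor of 3 counts per library, so no fold change is given for them. The difference of responses did not pass (adjusted p = 0.346), and its fitted size depends on the prior count.

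NADPH supply had 2 called genes of 12 tested, both of the pentose phosphate pathway. Pgd, 6-phosphogluconate dehydrogenase, had a fold change of 2.27 in WT and 0.86 in C151S mice (adjusted p of the difference 0.000168), with 101 to 135 CPM in WT CDDO-Me mice and 28.6 to 56.3 CPM in all others. Tkt, transketolase, differed by 0.78 (SE 0.17, adjusted p = 0.0363). G6pdx, the entry enzyme of the pathway, had a difference of 1.54 (SE 0.35) that did not pass in edgeR at an adjusted p of 0.0582 and was called by DESeq2. With high-Arntl libraries only, 3 of the 12 members were called, and without replicate 1 of the C151S CDDO-Me mice 1 was. In WT mice 4 members of this list rose.

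Glucuronidation and the supply of UDP-sugars had 4 called genes of 21 tested, and 19 of the 21 differences were above 0. Ugdh, which makes UDP-glucuronic acid, differed by 1.85 (SE 0.26, adjusted p = 0.00085) and was at 542 to 753 CPM in WT CDDO-Me mice and 96.5 to 253 CPM in the others. Slc35d1, a carrier of UDP-sugars into the endoplasmic reticulum, differed by 1.02 (SE 0.15, adjusted p = 0.00156), and Entpd5, a nucleoside diphosphatase of that compartment, by 1.13 (SE 0.18, adjusted p = 0.00303). The transferase Ugt2b35 differed by 1.51 (SE 0.27, adjusted p = 0.00824). Of the 10 lists of detoxification genes it had the second largest median difference, 0.67, after the mu class.

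Heme and iron metabolism had 4 called genes of 18 tested. Slc48a1, a heme transporter, differed by 1.00 (SE 0.16, adjusted p = 0.00312), and Blvrb, biliverdin reductase B, by 0.98 (SE 0.22, adjusted p = 0.0471). Ftl1, the ferritin light chain, differed by 0.91 (SE 0.19, adjusted p = 0.0325), and Bmp6, a ligand that induces hepcidin, by 1.10 (SE 0.20, adjusted p = 0.00766). Hmox1, heme oxygenase 1, did not pass in either genotype, with log2 changes of 0.19 in WT and -0.01 in C151S mice. Ferritin heavy chain Fth1 rose in WT mice by 0.66, while its difference of 0.30 did not pass (adjusted p = 0.582). With high-Arntl libraries only, 1 of the 18 was called.

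Efflux transporters had 2 called genes of 15 tested, and 5 rose in WT mice. Abcc4, an exporter of organic anions, lay at 9.55 to 27.6 CPM in WT CDDO-Me mice and at 1.75 to 6.27 CPM in the others (difference 1.89, SE 0.40, adjusted p = 0.032). Abcc12, a less studied relative, differed by 3.38 (SE 0.60, adjusted p = 0.00707). The canalicular exporter Abcc2 and the basolateral exporter Abcc3 rose in WT mice by 0.74 and 0.99, and their differences of 0.66 and 0.98 did not pass in edgeR (adjusted p = 0.213 and 0.117), although DESeq2 called Abcc3. Carboxylesterases had 1 called gene of 15 tested, Ces1b, with a difference of 1.15 (SE 0.19, adjusted p = 0.00303). That family was split, with 3 members that rose and 3 that fell in WT mice, and 8 differences above 0 and 7 below. In the libraries of high Arntl 0 efflux transporters were called by edgeR, and without replicate 1 of the C151S CDDO-Me mice 1 was. G6pdx, Hmox1, Fth1, Abcc2, Abcc3, and the uncalled mu class genes were chosen after their values were seen.

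**Figure D3:**
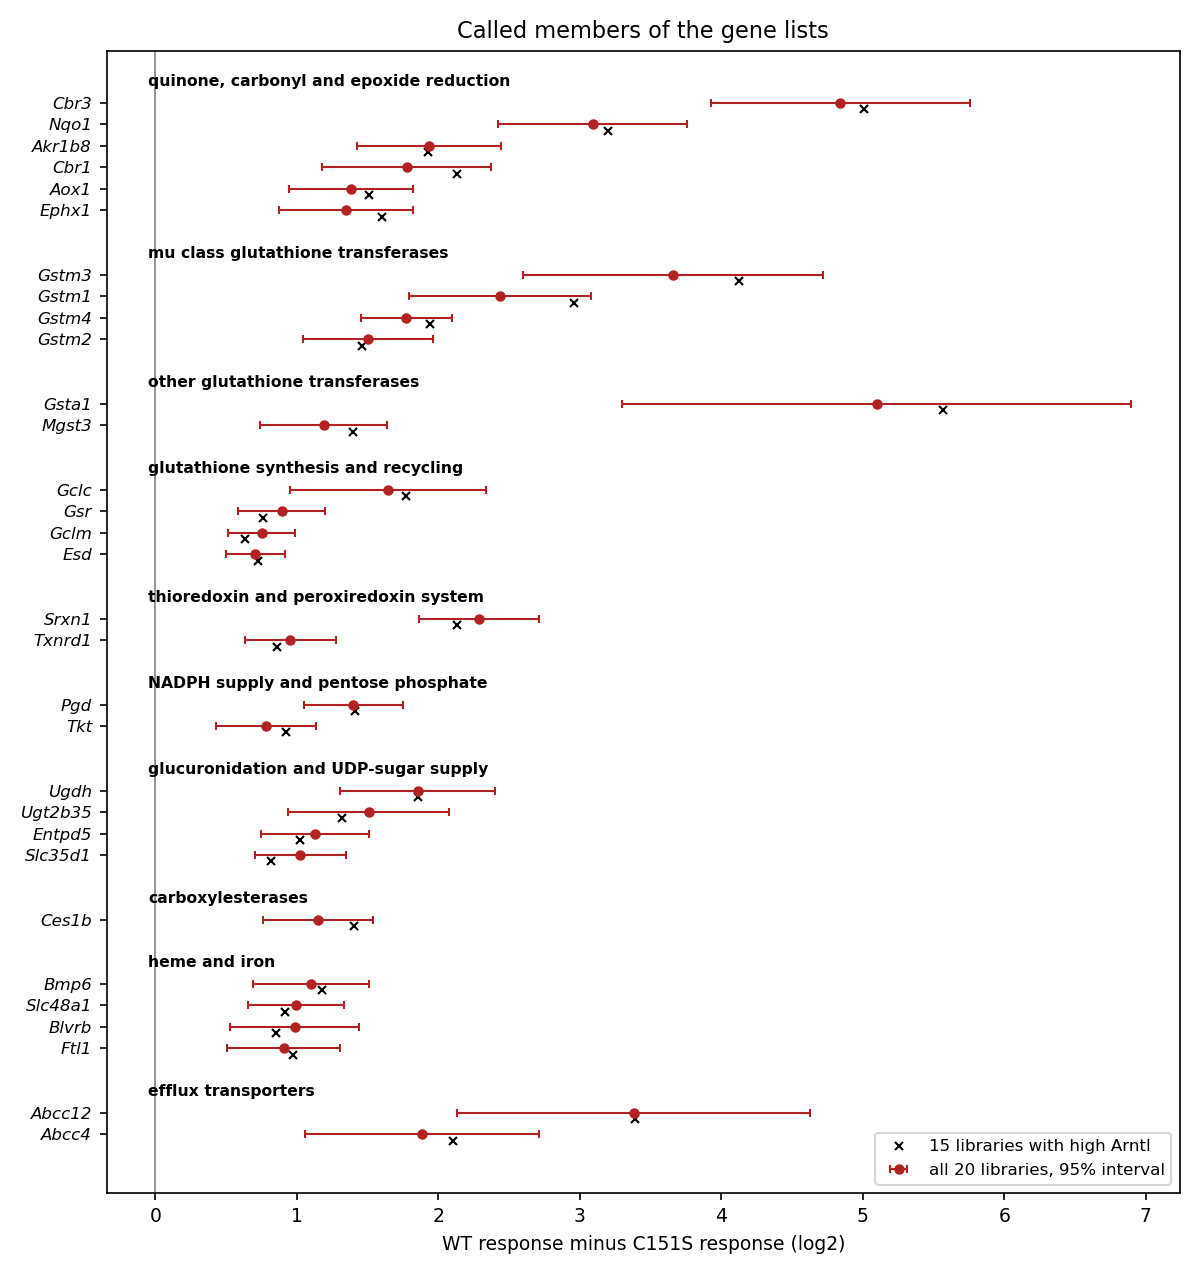
Difference of the responses (WT minus C151S, log2) for the 31 called members of 10 gene lists, with red points and 95% intervals from all 20 libraries and crosses from the 15 libraries with high Arntl. All 31 values lie above 0, from 0.71 for Esd to 5.10 for Gsta1.

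Taking these 10 lists as a whole, 31 of 163 tested members were called (19.0%, against 0.474% of all genes), all with the more positive response in WT mice. In WT mice 54 of the 163 rose and 6 fell. WT rises were called in 1.23% of all genes and WT falls in 0.681%. In C151S mice 0 of the 163 rose and 1 fell (Ugt2b38, a UDP-glucuronosyltransferase, which also fell in WT mice), where 0.268% of all genes rose and 0.495% fell. At an unadjusted p under 0.05, 12 of the 163 were higher and 14 lower after CDDO-Me in C151S mice. Of all genes, 11.5% were higher and 9.48% lower at that level, so these counts do not stand above the rest. The lists were written with results of these data known and hold many established NRF2 targets, so their counts describe the genes and are not independent evidence.

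The other 29 genes with a more positive response in WT mice fell outside the 10 lists. Creg1, which encodes a secreted glycoprotein, lay at 704 to 995 CPM in WT CDDO-Me mice and at 323 to 476 CPM in the others, a difference of 0.96 (SE 0.13, adjusted p = 0.000589). Gbe1, the glycogen branching enzyme, differed by 1.29 (SE 0.27, adjusted p = 0.0311) and rose 2.42-fold in WT mice. Htatip2, a short-chain dehydrogenase-like protein, differed by 1.15 (SE 0.24, adjusted p = 0.0276). Ikbkg, the regulatory subunit of the IκB kinase complex, differed by 0.63 (SE 0.13, adjusted p = 0.0363), and it kept its call in 5 of the 20 fits that left out 1 mouse. Clcf1, a cytokine of the interleukin 6 family, differed by 1.80 (SE 0.38, adjusted p = 0.0325). The genes of this paragraph, Creg1 apart, were chosen after their values were seen.

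For 2 of the 60 genes WT mice showed no called rise. 9130409I23Rik fell in C151S mice (-1.19, adjusted p = 0.035) with a WT change of 0.79 (adjusted p = 0.154). Hectd2os, an antisense transcript, had changes of 0.93 in WT and -1.53 in C151S mice that did not pass by themselves (adjusted p = 0.29 and 0.0544). The counts were made by strand.

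The genotypes also differed before treatment for part of these genes. In vehicle-treated mice 14 of the 60 were called higher in WT than in C151S mice, where 3.62% of all genes were, and Tcf7l2 was called lower. Aox1 (log2 difference 0.76), Gstm4 (0.73), Blvrb (0.63), Srxn1 (0.57), Tkt (0.51), Txnrd1 (0.41), and Gsr (0.41) were among them. Nqo1 (0.09), Gclm (0.05), and Gstm3 (0.12) were not. This comparison shares its vehicle libraries with the difference of responses, and the 5 C151S Vehicle mice include 2 of low Arntl.

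Beside these values, the 60 genes had a median change of 0.08 in Nrf2-knockout mice in a fit of all 30 libraries. The changes there ran from -1.14 to 1.53, and 0 of the 60 passed in edgeR, where 0.0733% of the 15010 genes tested did. An unadjusted p under 0.05 was found for 9 of the 60 (15%) and for 10.5% of all genes there. Nqo1 changed by 0.39 (adjusted p = 0.574), Gstm1 by 0.15 (adjusted p = 0.813), and Cbr3 by -0.08 (adjusted p = 0.945) in those mice.

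The promoters of the called genes were searched for the core of the antioxidant response element, TGAC followed by any 3 bases and GC, on either strand and with overlaps allowed, in RefSeq windows of GRCm38.p6 from 250 bases before to 50 bases after each annotated start. Windows were found for 53 of the 60 genes, and 15 of the 53 (28.3%) held the motif. The share was 16.7% of the 10775 tested genes with a window and 12.4% of all windows. Genes differ in their number of windows. Among genes with a single window the motif was found in 7 of 36 (19.4%) and in 14.4% of all tested genes. A match is a description of the letters and not a bound site. The stretches below are those of the called genes of lowest p whose match lies wholly upstream of the start, printed in the direction of transcription with the motif in capitals, to show the letters and how far from the start they lie.

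Ugdh, chr5:65435941-65435999, minus strand, motif from position -132: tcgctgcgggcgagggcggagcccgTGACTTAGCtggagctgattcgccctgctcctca

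Gclm, chr3:122245398-122245456, plus strand, motif from position -134: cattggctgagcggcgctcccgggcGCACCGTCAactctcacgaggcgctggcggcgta

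Slc35d1, chr4:103215244-103215302, minus strand, motif from position -101: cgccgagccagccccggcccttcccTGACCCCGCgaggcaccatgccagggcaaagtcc

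Txnrd1, chr10:82859089-82859147, plus strand, motif from position -92: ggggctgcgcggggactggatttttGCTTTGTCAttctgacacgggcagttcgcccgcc

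In the stretches of Ugdh and Slc35d1 the motif reads in the direction of transcription, and in Gclm and Txnrd1 it lies on the opposite strand, so that GC stands first. Ugdh has a second match from position -94 on the opposite strand, beyond the motif marked here.

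The response was more negative in WT than in C151S mice for 9 genes. The group was mixed: 6 fell in WT mice without a called change in C151S mice, and 3 rose in C151S mice without a called change in WT mice. At an unadjusted p under 0.05, 7 of the 9 were higher after CDDO-Me in C151S mice, where 11.5% of all genes were. The genes were called from these same libraries, so this count describes the call. Several were expressed at a low level, with under 5 CPM in every mouse for Gm43860, Mpp4, Prss53, Tagln3, and Plcd3. The count was also less stable than that of the first group. It was 4 to 24 when each mouse was left out in turn, and it was 24 without replicate 2 of the C151S CDDO-Me mice, 5 without WT CDDO-Me replicates 1, 2, or 3, C151S Vehicle replicate 1, or WT Vehicle replicate 2, and 4 without WT CDDO-Me replicate 4, WT Vehicle replicate 5, or C151S Vehicle replicate 3.

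Gm43860, a gene model of unassigned class on chromosome 5, had the lowest p of the 9. It was at 1.2, 0.848, 0.844, 0.966, and 1.09 CPM in WT Vehicle mice and at 0.382, 0.422, 0.546, 0.484, and 0.514 CPM in WT CDDO-Me mice. Values in C151S mice were 0.703, 0.417, 0.533, 0.845, and 0.825 CPM with vehicle and 1.24, 0.811, 1.15, 1.52, and 1.41 CPM with CDDO-Me. WT mice were lower after treatment without overlap, and C151S mice were mostly higher, with 1 treated mouse inside the vehicle range. The log2 difference was -1.94 (SE 0.31, adjusted p = 0.00289), from 10 to 55 counts per library.

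Mpp4 encodes a membrane-associated scaffold protein known from photoreceptors. WT Vehicle mice had 2.58, 3.36, 2.51, 1.87, and 3.07 CPM and WT CDDO-Me mice 1.37, 1.49, 1.71, 1.34, and 1.09 CPM. Mutant mice given vehicle had 1.44, 1.76, 1.75, 2.32, and 1.65 CPM and C151S CDDO-Me mice 2.48, 1.62, 3.59, 3.84, and 3.73 CPM. Treatment separated the WT groups, and 4 of 5 treated C151S mice lay above all their controls. On the log2 scale the responses differed by -1.71 (SE 0.31, adjusted p = 0.00879), and it was not called with high-Arntl libraries only (adjusted p = 0.13).

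Prss53, a serine protease gene, was at 0.817, 1.08, 1.13, 0.997, and 1.26 CPM in WT Vehicle mice and at 0.458, 0.389, 0.614, 0.512, and 0.665 CPM in WT CDDO-Me mice. In C151S mice it was at 0.895, 0.922, 0.787, 1.03, and 0.586 CPM with vehicle and at 0.939, 1.27, 1.09, 1.27, and 1.6 CPM with CDDO-Me. Only the WT groups were free of overlap. The log2 difference was -1.55 (SE 0.28, adjusted p = 0.00903), and it was not called with high-Arntl libraries only (adjusted p = 0.107).

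Tagln3, which encodes a transgelin of neurons, had 2 to 33 counts per library. WT Vehicle mice had 0.344, 0.373, 0.384, 0.423, and 0.341 CPM and WT CDDO-Me mice 0.229, 0.13, 0.171, 0.0569, and 0.121 CPM. C151S Vehicle mice had 0.32, 0.268, 0.127, 0.282, and 0.479 CPM and C151S CDDO-Me mice 0.536, 0.837, 0.395, 0.608, and 0.747 CPM. The WT groups did not overlap and the C151S groups did. On the log2 scale the responses differed by -2.50 (SE 0.47, adjusted p = 0.0103).

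Gm42031, a noncoding gene on chromosome 8, had the largest difference in this direction, -4.27 (SE 0.89, adjusted p = 0.0301). It lay at 0.387, 0.475, 0.153, 0.181, and 0.205 CPM in WT Vehicle mice and at 0.458, 0.617, 0.341, 0.171, and 0.604 CPM in WT CDDO-Me mice. C151S livers held 0.0959, 0.417, 0.127, 0.563, and 0.586 CPM with vehicle and 1.81, 7.63, 18.5, 10.3, and 17.6 CPM with CDDO-Me. All 5 treated C151S mice lay above the other 15 mice, and the fold change was 31.0 in C151S mice. Plcd3, a phospholipase C, was similar in form with a 6.77-fold rise in C151S mice (difference -2.45, SE 0.54, adjusted p = 0.0423), from 0.268 to 0.352 CPM to 0.536 to 3.56 CPM. Neither was called with high-Arntl libraries only (adjusted p = 0.0787 and 0.262).

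**Figure D4:**
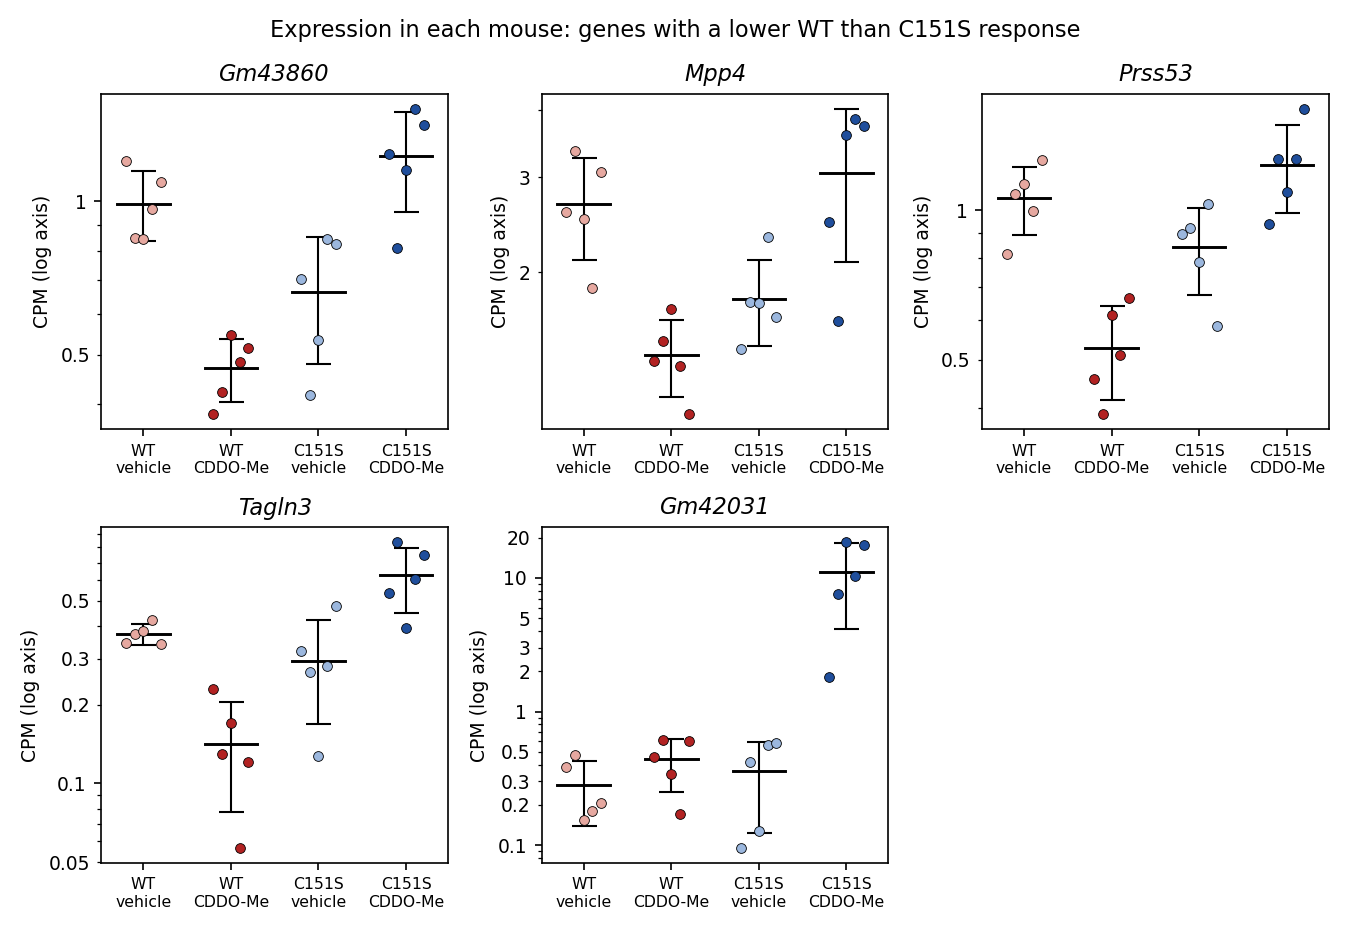
Expression in each mouse (points, CPM on a log axis) of 5 genes with a more negative response in WT mice, in the 4 groups of 5 mice, with the mean as a line and the SD as bars. Gm43860, Mpp4, Prss53, and Tagln3 lie lower in WT CDDO-Me than in WT Vehicle mice, and Gm42031 reaches 1.81 to 18.5 CPM in C151S CDDO-Me mice alone.

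The remaining genes of this group were Irf2, an interferon regulatory factor (-0.51, SE 0.11), Raph1, an adaptor of the actin cytoskeleton (-0.60, SE 0.13), and Cactin, a splicing-associated protein (-0.54, SE 0.12). Irf2 and Raph1 fell in WT mice, by 0.36 and 0.41, and Cactin rose in C151S mice by 0.39 (adjusted p = 0.0297). With high-Arntl libraries only, Raph1 was called (adjusted p = 0.0238), and Irf2 and Cactin were not (adjusted p = 0.13 and 0.172).

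Most genes that changed in WT mice were not called as different between the genotypes. The difference carries the larger error, with a median SE over all genes of 0.22 beside 0.16 for the WT change. A missing call therefore does not show an equal response. Of 179 genes that rose in WT mice, 58 were called in the test of the difference and 150 had an unadjusted p under 0.05 there. Of 99 that fell, 6 were called and 39 had an unadjusted p under 0.05. The WT fold change is computed from WT libraries, while the filter, the scaling, and the estimate of spread behind its call are shared with the C151S libraries. Among genes that rose in WT mice, 107 (59.8%) were also higher in treated C151S mice, where 49.9% of all genes were, and the median C151S change was 0.04 against a WT median of 0.75. Among genes that fell in WT mice, 83 (83.8%) were also lower in treated C151S mice, where 50% of all genes were, and the median was -0.51 against -1.04. At an unadjusted p under 0.05 in the same direction in C151S mice there were 22 (12.3%) of the genes that rose and 56 (56.6%) of those that fell, where 11.5% of all genes were higher and 9.48% lower at that level. With high-Arntl libraries only, 101 of 179 and 81 of 99 kept the direction, with median C151S changes of 0.05 and -0.58. Genes of 1 pathway move together and are not independent, and these shares carry no test.

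Both genotypes passed the test in the same direction for 28 genes, 2 of which rose and 26 of which fell. The 2 that rose were the metallothioneins Mt1 and Mt2, small zinc-binding proteins. Mt1 lay at 43.7, 50.4, 15, 42.9, and 37.1 CPM in WT Vehicle mice and at 503, 203, 149, 199.8, and 494 CPM in WT CDDO-Me mice. The mutant mice had 93.3, 114, 98.4, 68.6, and 142 CPM with vehicle and 2160.3, 305, 214, 265, and 369.9 CPM with CDDO-Me. The groups did not overlap in either genotype, and 1 treated C151S mouse stood far above the rest. The change was 3.03 in WT mice (adjusted p = 0.00635) and 2.68 in C151S mice (adjusted p = 0.0303). Without that mouse the C151S change was 1.48 (SE 0.35, adjusted p = 0.0845), and the difference between genotypes moved from 0.35 (adjusted p = 0.906) to 1.55 (SE 0.49, adjusted p = 0.266).

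Mt2 followed the same course. It was at 23.4, 24.2, 6.06, 20.1, and 13.5 CPM in WT Vehicle mice and at 359, 167, 90.3, 121, and 314 CPM in WT CDDO-Me mice. In C151S mice it was at 34, 37, 41.7, 27.4, and 65.5 CPM with vehicle and at 1919, 224, 109, 136, and 225 CPM with CDDO-Me. The groups were again apart in both genotypes. Its C151S change was 3.67 (adjusted p = 0.019) and, without the mouse that stood apart, 2.07 (SE 0.41, adjusted p = 0.0336). With all mice the difference between genotypes was -0.07, with a 95% interval from -1.96 to 1.81, and without that mouse it turned to 1.52 (SE 0.56, adjusted p = 0.374).

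The 26 genes that fell in both genotypes were 0.179% of all genes tested, and 7 of them were in the list for mitosis and DNA replication. Others encode parts of the kinetochore or spindle (Nuf2, Knl1, Cenpe, Cenpf, Tpx2, and Kif20a). Of 22 tested members of the list for mitosis and DNA replication, 7 fell in WT mice and 13 in C151S mice, where 0.681% and 0.495% of all genes did. In the test of the difference 0 of the 22 were called by edgeR, DESeq2, or limma-voom, and 1 had an unadjusted p under 0.05 in edgeR. Of all 14542 genes, 0.474% were called by edgeR and 1484 had such a p, so 0 of 22 says little about these members. Mki67, the Ki-67 antigen of cycling cells, had 5.42, 2.34, 3.79, 1.21, and 2.32 CPM in WT Vehicle mice and 0.382, 0.909, 0.955, 0.853, and 0.967 CPM in WT CDDO-Me mice. C151S mice had 6.36, 4.34, 7.79, 3.35, and 4.93 CPM with vehicle and 0.436, 1.8, 0.972, 1.41, and 1.04 CPM with CDDO-Me. Treated mice lay below vehicle mice without overlap in both genotypes.

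Ccna2, cyclin A2, behaved in the same way. WT Vehicle mice had 1.08, 1.29, 1.1, 0.755, and 1.19 CPM and WT CDDO-Me mice 0.344, 0.325, 0.307, 0.341, and 0.453 CPM. Mutant mice given vehicle had 2.24, 2.05, 2.36, 1.25, and 1.28 CPM and C151S CDDO-Me mice 0.335, 0.558, 0.82, 0.552, and 0.96 CPM. Its change was -1.60 in WT (adjusted p = 0.00265) and -1.50 in C151S mice (adjusted p = 0.00768), and the 95% interval of the difference ran from -0.85 to 0.65. Cdc20, an activator of the anaphase-promoting complex, changed by -2.58 and -2.88, and Top2a, a DNA topoisomerase, by -1.99 and -2.16 in WT and C151S mice. Mt1, Mt2, Mki67, Cdc20, Top2a, and the kinetochore and spindle genes were chosen after their values were seen.

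Selenbp2, a selenium-binding protein gene, also fell in both genotypes. It lay at 302, 472, 778, 266, and 658 CPM in WT Vehicle mice and at 73, 80.9, 107, 106, and 149.7 CPM in WT CDDO-Me mice. In the mutants it lay at 206, 116, 251, 442, and 245 CPM with vehicle and at 76.5, 56.8, 157, 66.5, and 56.7 CPM with CDDO-Me. The WT groups were apart, while 1 treated C151S mouse lay within the vehicle range. The change was -2.26 in WT (adjusted p = 0.00134) and -1.61 in C151S mice (adjusted p = 0.0418), and the interval of the difference ran from -1.70 to 0.38.

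Lama3, a laminin chain, fell in WT mice. It was at 7.83, 6.88, 9.21, 6.79, and 7.85 CPM with vehicle and at 3.78, 3.99, 3.92, 3.58, and 3.81 CPM with CDDO-Me. Values in C151S mice were 9.49, 8.12, 9.42, 9.98, and 8.36 CPM with vehicle and 6.97, 7.81, 8.2, 5.11, and 2.27 CPM with CDDO-Me. The treated C151S mice spread widely downward and touched the vehicle range. The C151S change of -0.58 did not pass (adjusted p = 0.142), nor did the difference of -0.43, whose interval ran from -1.07 to 0.20.

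Elovl3, a fatty acid elongase, differed between genotypes before treatment. WT Vehicle mice had 269, 392, 335, 180.0, and 323 CPM and WT CDDO-Me mice 56.8, 47.7, 136, 99.6, and 39.5 CPM. C151S Vehicle mice had 73.6, 29.5, 128, 27.7, and 18 CPM and C151S CDDO-Me mice 44.9, 18.4, 21.2, 1.66, and 1.52 CPM. All WT Vehicle mice lay above all C151S Vehicle mice (log2 difference 2.44, adjusted p = 0.0447). Neither change passed with the spread of all 4 groups (adjusted p = 0.21 in WT and 0.179 in C151S mice). The difference of the changes was -0.32, with an interval from -2.31 to 1.67.

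Fos, an immediate early transcription factor, varied among mice of every group. It was at 15.9, 0.983, 2.33, 12.3, and 16.5 CPM in WT Vehicle mice and at 0.496, 0.584, 1.88, 71.7, and 74.5 CPM in WT CDDO-Me mice. In C151S mice it was at 4.8, 37.7, 65.8, 1.06, and 20.6 CPM with vehicle and at 0.905, 28.7, 17.4, 10.5, and 14.4 CPM with CDDO-Me. The treated WT mice fell into 3 low and 2 high values, and no pair of groups was apart. The difference was 2.50 with an interval from -0.92 to 5.93.

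The genes of the sensor and the factor did not differ in response. Nfe2l2 was at 67.4, 63.2, 64.7, 68.2, and 58.3 CPM in WT Vehicle mice and at 51.5, 47, 57.7, 55.8, and 49 CPM in WT CDDO-Me mice. C151S livers held 78.9, 82.9, 84.4, 72.1, and 64.2 CPM with vehicle and 41.5, 67.9, 69.6, 78.4, and 68.9 CPM with CDDO-Me. The WT groups did not overlap, yet neither change passed (-0.30 in WT, adjusted p = 0.318, and -0.23 in C151S mice, adjusted p = 0.294). The interval of the difference ran from -0.44 to 0.29, and its sign turned with high-Arntl libraries only. NRF2 is regulated largely as a protein, which these libraries do not measure.

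Keap1 mRNA was at 48.6, 63.8, 47.2, 58, and 50.5 CPM in WT Vehicle mice and at 70.6, 76, 59.6, 60.6, and 67.9 CPM in WT CDDO-Me mice. The mutant mice had 37.7, 46.8, 38.7, 47.5, and 50 CPM with vehicle and 64.2, 41.6, 51.9, 53, and 55.5 CPM with CDDO-Me. The groups of both genotypes overlapped, and the interval of the difference of 0.05 ran from -0.29 to 0.39. Of the 16 tested members of the list of NRF2, KEAP1, and partner factors, 0 were called by edgeR, where 0.474% of all genes were. In this list 1 member had an unadjusted p under 0.05 in edgeR, and 0 were called by DESeq2 or limma-voom. The 2 of lowest p were Mafk, a small MAF partner (0.51, adjusted p = 0.32), and the coactivator Ep300 (-0.30, adjusted p = 0.522).

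In 12 of the 22 pathway lists and in all 8 cell type lists no member was called. Of all 14542 genes tested, 1484 had an unadjusted p under 0.05, and edgeR called 69 and limma-voom 67. DESeq2 called 144 of 14536. Of the 221 tested members of these lists, 20 had an unadjusted p under 0.05, and 5 were called by DESeq2 and 0 by limma-voom. The 5 were Hspb1, Slc39a14, Myc, Hsp90b1, and Sdf2l1. Heat shock chaperones had a median difference of -0.58, and 11 of 12 tested members were below 0. Hspb1, a small heat shock protein, had changes of -0.67 in WT and 0.49 in C151S mice (difference -1.16, adjusted p = 0.148), and Hsp90aa1, a cytosolic chaperone, had -0.39 and 0.47 (difference -0.86, adjusted p = 0.284). Of the genes of the endoplasmic reticulum stress response, the chaperone Hsp90b1 had a difference of -0.77 (adjusted p = 0.0901) and its relative in function Sdf2l1 one of -1.68 (adjusted p = 0.165). These last 4 genes were also higher in WT than in C151S vehicle mice, by 0.88 to 1.74 on the log2 scale, and those vehicle differences passed.

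Acute phase genes had a median change of 0.46 in WT and 1.36 in C151S mice, and 17 of 19 differences were below 0, with 0 at an unadjusted p under 0.05. This pattern rested on replicate 1 of the C151S CDDO-Me mice. Without it the median C151S change was 0.34, the median difference turned from -0.72 to 0.18, and 8 of 19 differences were below 0. Fgb, a fibrinogen chain, had a difference of -0.77 (adjusted p = 0.528) with all mice and -0.22 without that mouse (adjusted p = 0.766), and Il6ra, a subunit of the interleukin 6 receptor, had -0.86 (adjusted p = 0.525). Immediate early genes had a median difference of 0.99, 9 of 10 above 0, and 0.72 without that mouse. Their lowest p was that of Myc, a growth-related factor (2.29, SE 0.59, adjusted p = 0.119), and the stress factor Atf3 had 2.67 (adjusted p = 0.532).

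Genes of other nuclear receptor and lipid pathways also gave no call. Cyp2a5, a cytochrome P450 of coumarin metabolism, rose in WT mice to 2785 to 4681 CPM, from 492 to 818 CPM, and had a difference of 2.10 (SE 0.80, adjusted p = 0.372). C151S mice ranged from 87.5 to 959 CPM with vehicle and from 146 to 1246 CPM with CDDO-Me. With high-Arntl libraries only Cyp2a5 was called, at 2.44 (SE 0.35, adjusted p = 0.00379). Cyp1a2, a P450 of caffeine metabolism, had a difference of 0.80 (adjusted p = 0.473). In cholesterol synthesis 14 of 15 differences were above 0, with a median of 0.61. This median was 1.02 without replicate 1 of the C151S CDDO-Me mice and 0.19 with high-Arntl libraries only. The lowest p values of this list were those of Idi1 (1.63, adjusted p = 0.266) and Hmgcs1 (1.41, adjusted p = 0.453). In lipogenesis Pnpla3, a lipid droplet protein, and Fasn, the fatty acid synthase, had -1.94 and -0.86 (adjusted p = 0.336 and 0.448). With high-Arntl libraries only these 2 differences were -0.60 and -0.05. The PPAR-alpha targets Pdk4 and Acot1 had 1.45 and -0.83 (adjusted p = 0.446 and 0.571), the zinc genes Slc39a14 and Mtf1 -0.83 and -0.37 (adjusted p = 0.148 and 0.399), the replication licensing factor Cdt1 and the mitotic kinase Pbk 0.66 and 1.37 (adjusted p = 0.474 and 0.551), and the clock genes Per1 and Bhlhe40 -0.95 and -0.85 (adjusted p = 0.541 and 0.587).

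**Figure D5:**
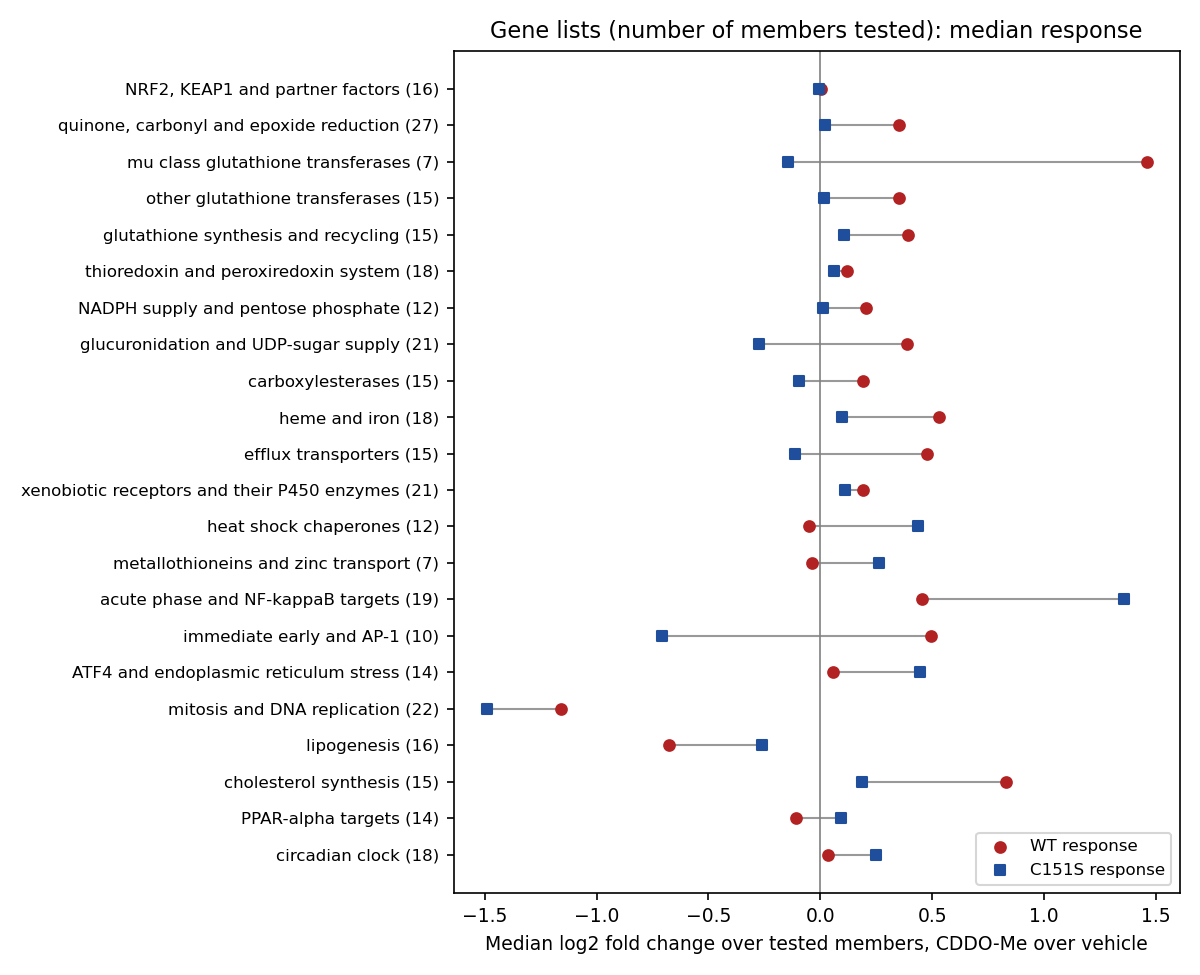
Median log2 change with CDDO-Me over the tested members of 22 gene lists (rows, number of members in parentheses) in WT mice (red circles) and C151S mice (blue squares). Mu class glutathione transferases are at 1.46 in WT and -0.14 in C151S mice, whereas the list for mitosis and DNA replication is at -1.16 and -1.49.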

How the data were processed

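Liver mRNA of 5 mice in each of the WT Vehicle, WT CDDO-Me, C151S Vehicle, and C151S CDDO-Me groups was sequenced on a stranded, paired-end platform, and groups were taken from the labels. The authors deposited raw counts per gene, 1 column per mouse, made with STAR 2.7.7 (gene counts of the strand that fits the library, uniquely placed reads) on mm10 with GENCODE M23. fastp was used for quality assessment only. The authors tested their data in edgeR 3.36.0 with the date of isolation as a covariate. The dates are not in the sample labels, so that covariate could not be fitted here. After removal of STAR's summary lines the table held 55335 genes, and 55154 of them were given a symbol and position from GENCODE M21. Between 65.89% and 79.51% of reads fell on genes and 11.32% to 16.93% were placed at several positions. Without molecular identifiers in the reads, the floor of 3 counts and the counting interval cover counting error only.

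In edgeR 4.0.16 under R 4.3.3, low counts were removed by filterByExpr, library sizes were scaled by TMM, and counts were fitted with a mean for each of the 4 groups (quasi-likelihood F-test, legacy fit). The tested contrast was WT CDDO-Me minus WT Vehicle, minus the same change in C151S. Within-genotype changes and vehicle differences came from the same fit. A gene was called where its p, adjusted after Benjamini and Hochberg over all genes tested, was under 0.05, with no threshold on size. SE was the log2 value divided by the square root of F, and 95% intervals used the moderated degrees of freedom. Log2 CPM used a prior count of 2. The fit was also run on simulated counts with changes in WT CDDO-Me libraries only. These held no Arntl division, no mouse that stands apart, and no vehicle difference between genotypes, so they do not test those features. GEO gives each mouse as a separate sample.

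Genes named are those the paper's RNA-seq text names, Nfe2l2, Keap1, the 10 of lowest p and 5 of largest difference in each direction, called list members, and the 2 of lowest p in pathway lists with no call. Values for each mouse are given for the genes the paper names, Nfe2l2, Keap1, and the 5 of lowest p in each direction. The contrast, members, and lists were chosen with earlier results of these data known. Alternatives were upper-quartile and RLE normalization, DESeq2 1.42.0, limma-voom (limma 3.58.1), the edgeR 4 fit, no filter, at least 10 counts in every library, all 30 libraries, a block for the replicate number, sva 3.50.0 with 1 surrogate variable, the Arntl side (low or high) of each library as a covariate or as a selection, 2 stricter thresholds, and each mouse left out. The side of Arntl used for the lists and for the C151S changes of WT-called genes, and the list medians, Mt1, Mt2, and Mki67 without C151S CDDO-Me replicate 1, were added after the data had been seen.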

Additional observations from a re-analysis of the deposited data

Results flagged for a closer look

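The responses of WT and C151S mice differed by the test of the difference itself for 69 genes. Among the genes with values given for every mouse, those with the more positive response in WT mice were Cbr3 (4.84), Nqo1 (3.09), Gstm1 (2.43), Srxn1 (2.29), Gstm4 (1.77), and Gm34934 (1.72), as log2 differences. Those with the more negative response in WT mice were Gm42031 (-4.27), Tagln3 (-2.50), Gm43860 (-1.94), Mpp4 (-1.71), and Prss53 (-1.55).

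Of 88 sets of 5 mice examined, 10 held a mouse farther from its neighbors than Dixon's limit for 5 values. Chance gives about 1 in 20 sets, but the count cannot be set against that rate. Mt1, Mt2, and Mki67, which hold some of these sets, were chosen after their values were seen. Replicate 1 of the C151S CDDO-Me mice was apart in 3 of the 10 sets, with 2160.3 CPM of Mt1, 1919 CPM of Mt2, and 41.5 CPM of Nfe2l2. Replicate 3 of that group was apart in 2, with 157 CPM of Selenbp2 and 0 CPM of Gpx2. The Gpx2 value is 0 counts beside 1 count in each other mouse of the group, at the floor of detection. In the WT CDDO-Me group, replicate 5 had 107 CPM of Nqo1 and 0.453 CPM of Ccna2, and replicate 1 had 0.382 CPM of Mki67. In the C151S Vehicle group, replicate 2 had 7.29 CPM of Nqo1 and replicate 5 had 42.2 CPM of Srxn1. Leaving out replicate 5 of the WT CDDO-Me mice gave 73 calls, and leaving out replicate 1 of the C151S CDDO-Me mice gave 58.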

How the results depend on the processing

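The 69 called genes kept their direction in every one of 12 other fits in which they were tested (9 of them in 11) and in the 20 fits that left out 1 mouse. Of the 69, 28 were called in all 12 other fits, 31 in every other fit that tested them, and 46 in all 20 that left out 1 mouse. The count of 69 (60 more positive and 9 more negative in WT) was 144 with DESeq2 (107 and 37), 109 with the Arntl side as a covariate (92 and 17), and 41 at a false discovery rate under 0.01 (38 and 3). With all 30 libraries it was 72, of which 14 were more negative. With each mouse left out it ran from 46 to 103, with 42 to 79 more positive and 4 to 24 more negative. Vehicle and CDDO-Me mice share replicate numbers, whose meaning is not given in the sources used here. The residuals of same-numbered mice had mean correlations of -0.0029 in WT and 0.0257 in C151S mice. Each mean rests on 5 pairs, which ran from -0.119 to 0.1873 in WT and from -0.37 to 0.3831 in C151S mice. So few pairs cannot decide whether the numbers pair the mice. With the number as a replicate block 44 genes were called, 4 of them more negative, and 42 were among the 69. The cause of these changes in count was not tested. Among uncalled genes the sign of the difference turned with high-Arntl libraries only for Bhlhe40 (0.34), Nfe2l2 (0.27), Keap1 (-0.051), Ccna2 (0.68), and Mt1 (-0.57). It turned for Elovl3 with the replicate block (0.13) and limma-voom (0.29), and for Mt2 with the replicate block (0.92), limma-voom (0.81), 1 surrogate variable (0.52), and the Arntl side as a covariate (0.30). With 1 mouse left out it turned for Mt2 in 7 fits (0.0047 to 1.52, the highest without C151S CDDO-Me replicate 1), Ccna2 in 3 (0.0097 to 0.084), Elovl3 without C151S CDDO-Me replicate 1 (0.38), Keap1 without replicate 2 of that group (-0.030), and Nfe2l2 without replicate 4 (0.0026). None of these was called under any of those settings. The source, litter, and low Arntl side of C151S mice cannot be told apart from genotype where WT mice have no counterpart. Differences of genes under about 1 CPM rest on few counts per library.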
